A study of Mus musculus with 6 samples.

Results

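The genes described here encode the BCL2 family, the caspases and their mitochondrial activators, and the inhibitor of apoptosis proteins (IAPs) with the related inhibitor cFLIP. They were chosen by symbol, which gave 43 of the 49523 gene symbols in the count table. Of these, 35 had 6 counts that sum to 60 or more and are described with values. The samples are RNA sequencing libraries of EO771, a mouse mammary carcinoma line. There are 3 libraries of cancer stem cells (CSC) and 3 of the other cells (non-CSC), with no treatment, genotype or time named for either group. How CSC were separated, and whether replicates are separate cultures, is not in the labels, so a p-value here covers only the spread among these libraries, possibly a technical one. The single comparison is CSC with non-CSC. The series title concerns survival of breast cancer stem cells.

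Cells decide on intrinsic apoptosis at the outer mitochondrial membrane. Anti-apoptotic BCL2 proteins hold the pore-forming effectors BAX and BAK in check, and BH3-only proteins bind the anti-apoptotic members or the effectors and tip the balance towards pores. Cytochrome c that leaves through the pores assembles APAF1 into the apoptosome, which activates the initiator caspase-9 and, through it, the executioner caspases, while IAPs hold caspases back. A separate group, the inflammatory caspases, acts in inflammasomes, where caspase-1 matures interleukin 18 and cleaves gasdermin D in pyroptosis. BCL2-family and IAP members differ between tumours in which one is expressed most, and drugs that mimic BH3 peptides or SMAC are directed at them.

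The CSC libraries held 27099879 to 28205651 counts and the non-CSC libraries 32204112 to 35971131, and the 43 genes took 0.297% to 0.303% of counts in CSC and 0.285% to 0.292% in non-CSC. Levels are CPM (counts scaled to a common library total) on TMM-adjusted library sizes, and tests are edgeR's quasi-likelihood test over 17630 genes with Benjamini-Hochberg adjustment and a threshold of 0.05. The 8 epithelial markers were all tested and summed to 4070 to 4260 CPM in CSC and 3310 to 3470 CPM in non-CSC, with 4 higher and 2 lower in CSC. Krt7 had 1057 CPM in CSC and 501.5 CPM in non-CSC, Epcam 10.2 CPM in CSC and 21.3 CPM in non-CSC, and Krt5 1.006 CPM in CSC and 3.64 CPM in non-CSC. The 2 that did not pass were Krt18, at 1267 CPM in CSC and 1255 CPM in non-CSC, and Cdh1, at 0.752 CPM in CSC and 0.952 CPM in non-CSC. Of 10 leukocyte markers 4 were at 0 in all libraries, among them Adgre1 and Cd3e. Their summed level was 25.5 to 27.3 CPM in CSC and 26.7 to 28.6 CPM in non-CSC, nearly all of it Cd68 and Csf1r, which moved in opposite directions. Cd68 had 17.8 CPM in CSC and 25.4 CPM in non-CSC, and Csf1r 8.06 CPM in CSC and 1.86 CPM in non-CSC. Ptprc, the common leukocyte antigen, was at 0.152 CPM in CSC and 0.0864 CPM in non-CSC. The summed level of 7 fibroblast and pericyte markers was 1200 to 1240 CPM in CSC and 555 to 590 CPM in non-CSC, nearly all of it Dcn, while Lum was at 0 in all libraries and Col1a1 at 1.06 CPM in CSC and 0.514 CPM in non-CSC. Of 6 endothelial markers 3 were at 0 in all libraries and 1 was tested, and the summed level was 0.389 to 0.517 CPM in CSC and 0.481 to 0.797 CPM in non-CSC. The 4 adipocyte markers summed to at most 0.0689 CPM in a CSC library and 0.0577 CPM in a non-CSC library. The 4 erythroid markers summed to 1.92 to 2.07 CPM in CSC and 1.05 to 1.40 CPM in non-CSC, nearly all of it Alas2. The part of other cells in the results was not tested beyond these values, and in bulk RNA, fewer cells of a type and less RNA per cell cannot be told apart.

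Members of several roles differed between the groups. The inflammatory caspase genes Casp1 and Casp12 were 2.67-fold and 3.07-fold higher in CSC, and Casp4 rose with them. Bok, a pore-forming relative of BAX, was 2.51-fold lower and Bcl2l14, a BCL2-like gene, 2.02-fold lower. The anti-apoptotic gene Bcl2l2 and the BH3-only gene Bbc3 fell by less, 0.66 and 0.53 on the log2 scale. In most roles some members rose and others fell, and the most abundant survival genes, Bcl2l1 and Mcl1, differed by -0.10 and 0.26 on the log2 scale.

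3 of the genes that rose are neighbours. Casp1, Casp4 and Casp12 lie in that order on the plus strand of chromosome 9, between 5298517 and 5373034 (GRCm38), with 1.6 kb between Casp1 and Casp4 and 8.7 kb between Casp4 and Casp12. RefSeq (GRCm38.p6) promoter sequences were found for 31 of the 35 genes. The bases before the annotated start are shown for the caspase neighbours, which rose together, and for Bok and Bcl2, the pore-forming and the anti-apoptotic gene with the largest fall and the largest rise in their roles. They are chr9:5298267-5298516 (plus strand), chr9:5308599-5308848 (plus), chr9:5345226-5345441 (plus), chr1:93685325-93685574 (plus) and chr1:106714291-106714540 (minus), 250 bases each except 216 for Casp12, where an annotated transcript starts earlier. Capitals mark matches to 9 short motifs on either strand: the GC box GGGCGG, the CCAAT box, the TATA box TATAAA, the E-box CACGTG, the cAMP response element (CRE) TGACGTCA, the AP-1 site TGANTCA, the C/EBP-ATF site TGATGNAA, the GAS site TTCNNNGAA, which STAT factors bind, and the interferon-stimulated response element (ISRE).
Casp1: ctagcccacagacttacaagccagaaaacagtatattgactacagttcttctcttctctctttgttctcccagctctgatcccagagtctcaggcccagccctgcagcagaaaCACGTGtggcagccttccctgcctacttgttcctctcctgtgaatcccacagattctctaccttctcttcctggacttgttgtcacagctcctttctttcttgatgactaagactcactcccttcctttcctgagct
Casp4: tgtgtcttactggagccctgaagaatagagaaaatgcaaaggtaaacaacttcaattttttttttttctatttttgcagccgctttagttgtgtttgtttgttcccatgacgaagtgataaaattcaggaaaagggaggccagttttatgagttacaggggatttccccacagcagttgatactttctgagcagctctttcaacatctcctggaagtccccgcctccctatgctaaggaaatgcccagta
Casp12: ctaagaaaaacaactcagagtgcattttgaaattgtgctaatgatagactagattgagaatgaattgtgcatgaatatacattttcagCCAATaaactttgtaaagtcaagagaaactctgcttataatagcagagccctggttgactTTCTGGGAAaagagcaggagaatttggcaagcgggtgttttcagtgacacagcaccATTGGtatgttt
Bok: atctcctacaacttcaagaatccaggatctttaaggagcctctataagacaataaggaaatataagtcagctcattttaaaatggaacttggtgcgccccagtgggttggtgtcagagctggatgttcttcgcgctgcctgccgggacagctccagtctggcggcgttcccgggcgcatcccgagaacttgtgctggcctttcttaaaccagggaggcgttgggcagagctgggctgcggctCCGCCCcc
Bcl2: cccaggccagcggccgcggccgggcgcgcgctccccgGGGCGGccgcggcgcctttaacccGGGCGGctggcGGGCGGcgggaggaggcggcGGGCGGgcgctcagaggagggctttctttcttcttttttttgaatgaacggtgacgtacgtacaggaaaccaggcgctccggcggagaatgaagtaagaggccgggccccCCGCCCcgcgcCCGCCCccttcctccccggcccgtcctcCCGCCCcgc

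The letters differ between these stretches. Bcl2 has 7 GC boxes and Bok 1, a motif found in 32.7% of all 32851 promoter windows of 250 bases. It is in at least 1 window of 18 of the 31 genes. Some of these genes have more than 1 window, so that count cannot be set against the share of single windows. The caspase windows have no GC box. Casp1 has 1 E-box, 137 to 132 bases before the start, and E-boxes are in 6.02% of windows. Casp12 has a GAS match 102 to 94 bases before the start of its table entry and another 36 to 28 bases before it. The second begins in the last bases of the printed stretch and runs into the annotated gene, and it is counted in the full window of 250 bases. At least 2 GAS matches are found in 0.317% of windows, at least 1 in 7.02%, and Casp12 is the only 1 of the 31 genes with any. Casp4 has none of the 9 motifs in the printed window. The other shares of all windows are 33.8% for CCAAT, 12.4% for the TATA box, 1.55% for CRE, 6.75% for AP-1, 3.45% for C/EBP-ATF and 2.98% for ISRE. A match describes letters only.

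Of the 35 genes, 27 (77.1%) differed at an adjusted p under 0.05, beside 66.5% of all genes tested. Higher in CSC were 14 (40.0%), beside 33.4% of all genes, and lower were 13 (37.1%), beside 33.1%. The spread between replicates was small, which lets small differences pass. Changes of at least 2-fold were found for 4 (11.4%), beside 12.1% of all genes, 2 of them higher (8.01% of all genes) and 2 lower (4.09%), and log2 changes of at least 0.5 for 9 (25.7%), beside 31.9%. The median log2 fold change was 0.03 over the 35 genes and 0.01 over all genes tested. The ranges of CPM did not overlap between groups for 28 of the 35, beside 69.3% of all genes, with 15 higher (35% of all genes) and 13 lower (34.3%). These shares lie near those of all genes, so what follows describes which members moved.

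**Figure D1:**
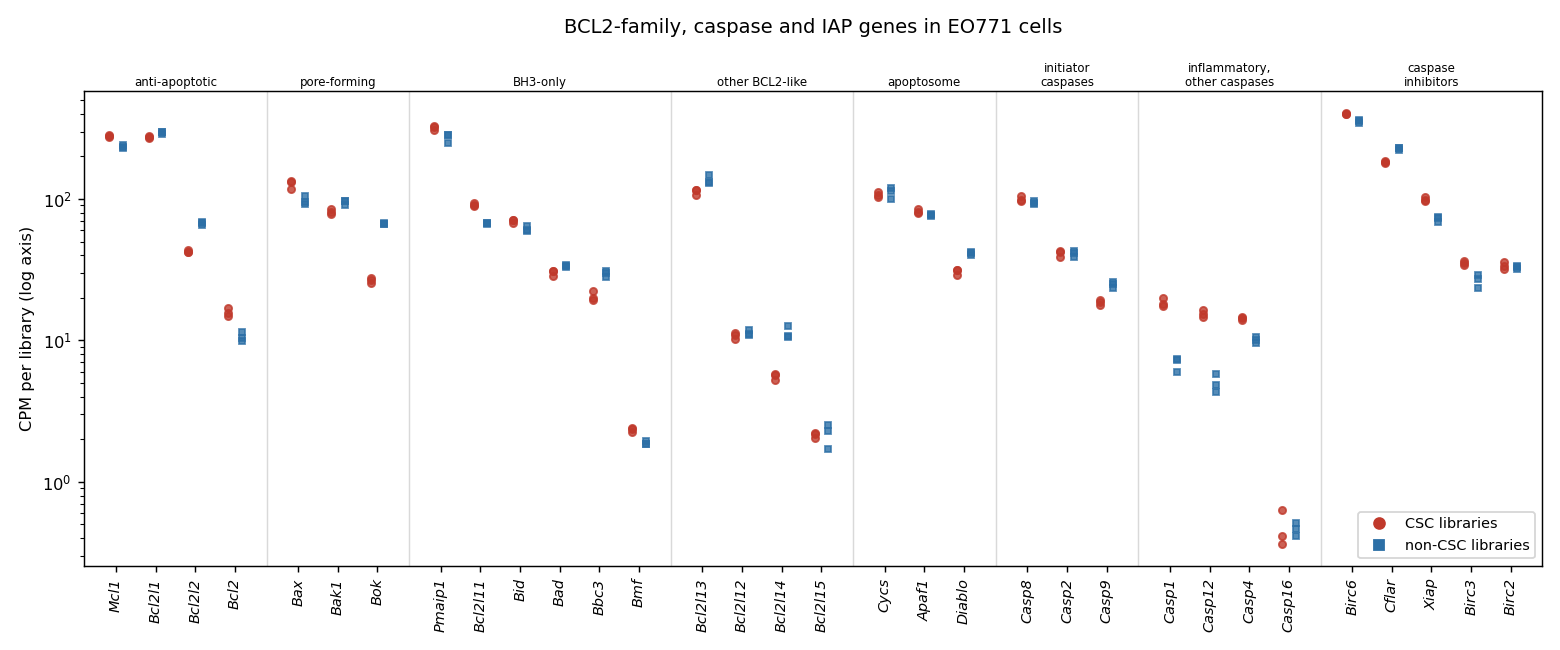
CPM of 32 of the 35 genes (log axis) in each of the 3 CSC libraries (circles) and 3 non-CSC libraries (squares), grouped by role and ordered by the CSC mean. The groups are widely apart for Casp1, Casp12, Bok and Bcl2l14, and close for Bcl2l1, Birc2, Casp2 and Cycs.

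The anti-apoptotic members split, with Bcl2 and Mcl1 higher and Bcl2l1 and Bcl2l2 lower in CSC. Bcl2l2 encodes BCL-W, a survival protein. It had 1164, 1185 and 1262 counts in CSC, which is 42.2, 41.9 and 43.5 CPM, against 2133, 2393 and 2308 counts in non-CSC, which is 68.0, 69.0 and 65.3 CPM. Every CSC library lay below every non-CSC library, and the log2 fold change was -0.66 ± 0.044 (SE; edgeR adjusted p = 4.49e-12). Other genes, Gm20521 foremost, cover 13.3% of its exon bases. Bcl2, the founding member, had 429, 483 and 431 counts in CSC and 359, 343 and 366 in non-CSC. All CSC libraries were higher, at 15.6, 17.1 and 14.9 CPM against 11.4, 9.89 and 10.4 CPM in non-CSC, a log2 fold change of 0.59 ± 0.073 (edgeR adjusted p = 2.31e-07). The 30 tested genes nearest to Bcl2 on chromosome 1 had a median of 0.33, and with the median of each chromosome taken out the value for Bcl2 was 0.39, still called.

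Mcl1, which encodes a short-lived survival protein, rose by 0.26 ± 0.035 on the log2 scale, with 284, 279 and 274 CPM in CSC against 228, 234 and 240 CPM in non-CSC (edgeR adjusted p = 1.05e-06). With chromosome medians taken out, its log2 fold change was 0.41. Bcl2l1, which encodes BCL-XL, had 275 ± 5.81 CPM in CSC and 294 ± 5.72 CPM in non-CSC (SD, n = 3 each). Its log2 fold change was -0.10 ± 0.035 (edgeR adjusted p = 0.0212). That call was lost in 5 of 16 alternatives, among them library-size scaling with a log2 fold change of -0.03 and the fits without CSC replicate 2 or without non-CSC replicate 2 (edgeR adjusted p = 0.0771 and 0.0777). Per kilobase of the longest coding transcript, Bcl2l1 (107 ± 2.27 in CSC and 114 ± 2.22 CPM per kb in non-CSC) and Mcl1 (81.7 ± 1.46 in CSC and 68.4 ± 1.67 in non-CSC) stood far above Bcl2l2 (11.2 ± 0.223 in CSC and 17.7 ± 0.5 in non-CSC) and Bcl2 (2.20 ± 0.157 in CSC and 1.47 ± 0.111 in non-CSC). The order of Bcl2l1 and Mcl1 turned round when the length of all exons was used, and the rest of the order did not. Bcl2l1 and Mcl1 together made up the larger part of this role's summed level in every library. Mcl1 took 39.8% to 40.9% of it in CSC and 33.1% to 34.9% in non-CSC, and Bcl2l2 5.39% to 5.67% in CSC and 8.54% to 8.87% in non-CSC. The 4 A1 genes (Bcl2a1a to Bcl2a1d) had no count in any library, and up to 79.5% of the 50-base words of their transcripts are shared between copies. Bcl2l10 had 1, 2 and 0 counts in CSC and 1, 0 and 0 in non-CSC.

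The pore-forming effectors moved apart. Bok encodes a BAX-like effector found on membranes of the endoplasmic reticulum and Golgi. It had 741, 778 and 743 counts in CSC (26.9, 27.5 and 25.6 CPM) against 2093, 2308 and 2374 in non-CSC (66.7, 66.5 and 67.2 CPM). The 3 non-CSC libraries lay within 1 CPM of each other and far above the CSC libraries. The log2 fold change was -1.33 ± 0.046, a 2.51-fold lower level in CSC (edgeR adjusted p = 3.71e-17), and its 30 nearest tested genes had a median of 0.25, in the other direction. Bax had 132, 134 and 118 CPM in CSC against 106, 94.5 and 92.4 CPM in non-CSC, all CSC libraries higher, and rose by 0.39 ± 0.055 on the log2 scale (edgeR adjusted p = 1.44e-05). Bak1 fell by 0.22 ± 0.042, with 81.3 ± 3.71 CPM in CSC and 94.4 ± 2.95 CPM in non-CSC (SD, n = 3 each). By level per length, Bax took 67.7% to 70.3% of the role in CSC and 50% to 52.9% in non-CSC, while Bok took 10.5% to 11% in CSC and 25% to 27.3% in non-CSC. Bok stood below Bak1 in CSC with either length. In non-CSC it stood above Bak1 with the transcript length and below it with the length of all exons. Exons of Ggnbp1 and others cover 25.5% of those of Bak1, and without the strand setting their reads cannot be told apart. Other genes, Gm45808 foremost, cover 12.2% of the exon bases of Bax.

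Among the BH3-only genes 4 rose and 2 fell, beside 33.4% higher and 33.1% lower over all genes tested. The calls of Bmf, a rise, and Bad, a fall, were lost in some alternatives. Bbc3 encodes PUMA, a BH3-only protein induced by p53 and by other stress factors. It had 621, 565 and 559 counts in CSC (22.5, 19.97 and 19.3 CPM) against 977, 1043 and 989 in non-CSC (31.1, 30.1 and 28.0 CPM), with no overlap. The log2 fold change was -0.53 ± 0.062 (edgeR adjusted p = 9.28e-08). Bcl2l11, which encodes BIM, a direct activator of BAX and BAK, went the other way, with 89.1, 90.6 and 94.2 CPM in CSC against 67.7, 67.4 and 66.1 CPM in non-CSC. It rose by 0.45 ± 0.040 on the log2 scale (edgeR adjusted p = 9.08e-10).

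Pmaip1, which encodes NOXA, a BH3-only protein that binds MCL1, was the highest of the role per length and rose by 0.23 ± 0.047. It had 310, 324 and 328 CPM in CSC against 249, 286 and 285 CPM in non-CSC (edgeR adjusted p = 2.21e-04), and the median of its 30 nearest tested genes was 0.25. Bid, the BH3-only protein cleaved by caspase-8, rose by 0.20 ± 0.044 and Bad, which is held inactive by phosphorylation, fell by 0.16 ± 0.051. Bad lies on chromosome 19, whose tested genes had a median of -0.24, and with chromosome medians taken out its value was 0.10 (edgeR adjusted p = 0.105), and without CSC replicate 3 it was -0.12 (edgeR adjusted p = 0.0697). Bmf, a BH3-only protein tied to the cytoskeleton, was low, with 65, 64 and 70 counts in CSC and 58, 68 and 65 in non-CSC. Its log2 fold change of 0.32 ± 0.135 passed with an edgeR adjusted p of 0.0461, and the call was lost in 11 of 16 alternatives, among them each of the 6 that leave out 1 library (edgeR adjusted p of 0.0628 to 0.117). Per kilobase, Pmaip1 had 118 ± 3.51 CPM in CSC and 100 ± 7.76 CPM in non-CSC, and Bid, the next, 32.1 ± 0.885 CPM in CSC and 28.0 ± 1.27 CPM in non-CSC. In CSC, the levels of Bad and Bcl2l11 overlapped, and other genes, Gpr137 foremost, cover 20.5% of Bad's exon bases. Bik and Hrk had at most 2 counts in any library.

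The other BCL2-like genes held or fell. Bcl2l14 encodes BCL-G, a family member of debated function. It had 145, 164 and 166 counts in CSC (5.26, 5.80 and 5.72 CPM) against 339, 436 and 372 in non-CSC (10.8, 12.6 and 10.5 CPM). Every CSC library stood at about one level, and all were below the non-CSC libraries, with a log2 fold change of -1.01 ± 0.088 (edgeR adjusted p = 6.61e-10). Bcl2l13, a mitochondrial outer membrane protein known as a mitophagy receptor, fell by 0.27 ± 0.049, with 114 ± 5.15 CPM in CSC and 137 ± 10.3 CPM in non-CSC (SD, n = 3 each). Bcl2l13 and Bid lie next to each other on opposite strands of chromosome 6, other genes, Bcl2l13 foremost, cover 17.7% of Bid's exon bases, and the pair moved in opposite directions. Bcl2l12 had 10.8 ± 0.470 CPM in CSC and 11.3 ± 0.432 CPM in non-CSC, and Bcl2l15 had 2.14 ± 0.096 CPM in CSC and 2.17 ± 0.407 CPM in non-CSC. Neither passed (edgeR adjusted p = 0.462 and 0.881). Other genes cover 14.1% of the exon bases of Bcl2l14, 33.4% of those of Bcl2l12 and 21.0% of those of Bcl2l15.

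**Figure D2:**
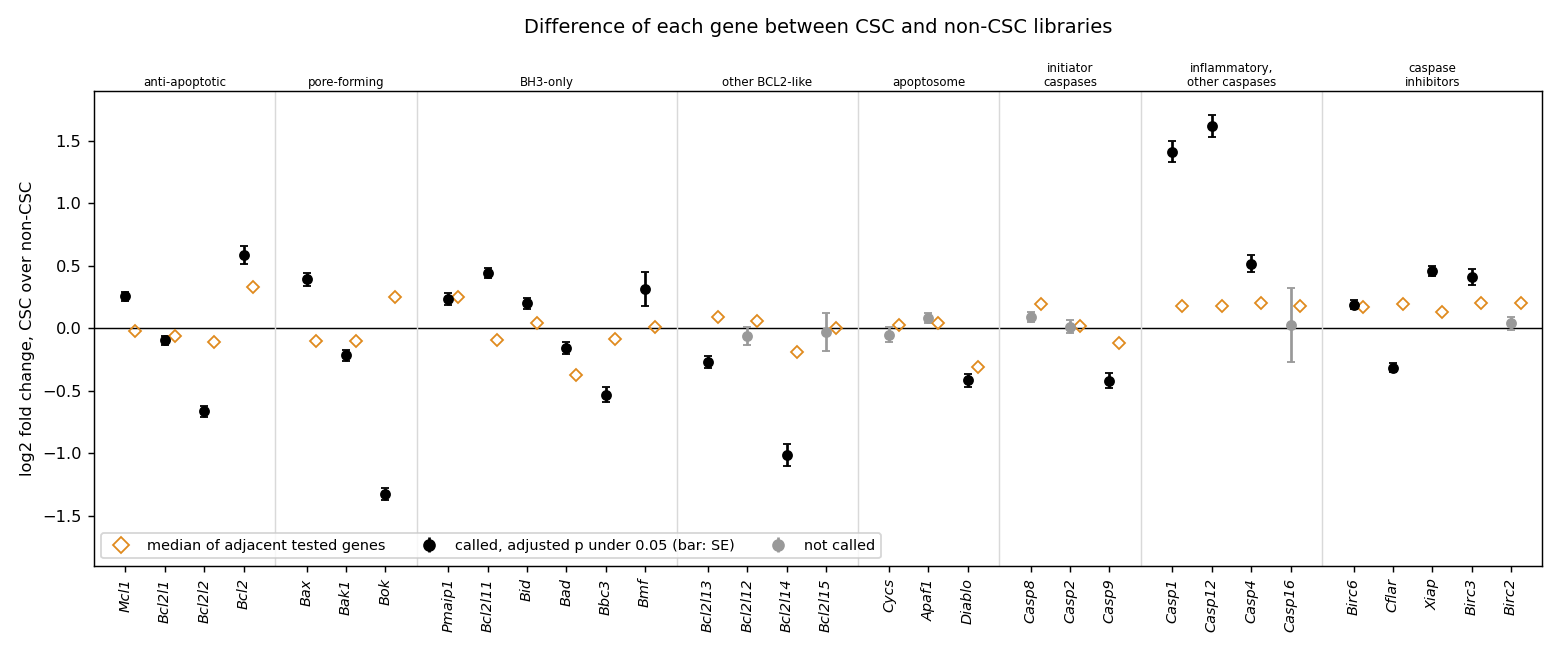
Log2 fold change of CSC over non-CSC for the same 32 genes with its standard error (circles, grey where the adjusted p was 0.05 or more), beside the median of up to 30 nearest tested genes (open diamonds). Casp1, Casp12, Bok and Bcl2l14 are at least 2-fold from 0, while the medians of their neighbours lie between -0.19 and 0.25.

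Of the apoptosome genes only Diablo passed, beside 66.5% of all genes tested. Diablo encodes SMAC, which is released from mitochondria and displaces IAPs from caspases. It fell by 0.42 ± 0.049, with 31.5, 31.6 and 29.2 CPM in CSC against 41.9, 41.2 and 40.2 CPM in non-CSC (edgeR adjusted p = 1.04e-07). Exons of other genes, B3gnt4 foremost, cover 40.9% of its exon bases, and its 30 nearest tested genes had a median of -0.31. Apaf1, the apoptosome scaffold, had 81.9 ± 2.83 CPM in CSC and 77.2 ± 1.35 CPM in non-CSC, a log2 fold change of 0.08 ± 0.040. Its groups did not overlap, but the edgeR adjusted p was 0.0703, and it passed under 3 alternatives. Cycs, cytochrome c, had 107 ± 4.17 CPM in CSC and 111 ± 10.6 CPM in non-CSC with overlapping libraries (edgeR adjusted p = 0.458). Without non-CSC replicate 1, it passed as lower, with a log2 fold change of -0.14 (edgeR adjusted p = 0.00582). Of the 50-base words of its transcript, 28.2% are found in other genes, Gm10053 foremost, so its level is uncertain. The same limit holds to a smaller degree for Bcl2l15 (21.9%), Diablo (15.3%), Bax (13.8%), Bcl2l2 (12.8%) and Cflar (11.6%).

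Of the initiator caspases only Casp9 passed, beside 66.5% of all genes tested. Casp9, the initiator of the apoptosome, fell by 0.42 ± 0.059, with 18.6, 17.8 and 19.3 CPM in CSC against 26.1, 25.1 and 23.5 CPM in non-CSC (edgeR adjusted p = 1.37e-06). Casp8, the initiator at death receptors, had 100 ± 4.97 CPM in CSC and 94.2 ± 2.80 CPM in non-CSC, with a log2 fold change of 0.09 ± 0.041 (edgeR adjusted p = 0.0599). It passed as higher under 6 alternatives, among them those without CSC replicate 3 or non-CSC replicate 2 (edgeR adjusted p = 0.0354 and 0.0493), and as lower, by 0.11, with chromosome medians taken out, so no direction can be given. Casp2 had 41.4 ± 2.36 CPM in CSC and 41.1 ± 1.9 CPM in non-CSC (SD, n = 3 each; edgeR adjusted p = 0.831).

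Casp6, an executioner caspase, fell by 0.29 ± 0.075, with 12.6, 10.7 and 11.3 CPM in CSC against 13.6, 13.4 and 15.2 CPM in non-CSC (edgeR adjusted p = 0.00151). The groups did not overlap, and the call was lost with chromosome medians taken out (edgeR adjusted p = 0.104). Per kilobase, Casp6 had 7.90 ± 0.663 CPM in CSC and 9.66 ± 0.706 CPM in non-CSC (SD, n = 3 each).

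The inflammatory caspases rose together. Casp1, the inflammasome protease, had 496, 561 and 508 counts in CSC (18.0, 19.8 and 17.5 CPM) against 187, 258 and 257 in non-CSC (5.96, 7.44 and 7.27 CPM). Every CSC library was more than 2-fold above every non-CSC library, and the log2 fold change was 1.42 ± 0.080 (edgeR adjusted p = 3.98e-13). Casp12, a caspase of the same subfamily, had 401, 462 and 446 counts in CSC (14.6, 16.3 and 15.4 CPM) against 153, 151 and 206 in non-CSC (4.88, 4.35 and 5.83 CPM). It had the largest change of the 35 genes, 1.62 ± 0.089 on the log2 scale (edgeR adjusted p = 2.54e-13). Casp4, the mouse gene of caspase-11, which senses bacterial lipopolysaccharide in the cytosol, had 396, 417 and 407 counts in CSC (14.4, 14.7 and 14.0 CPM) against 332, 331 and 355 in non-CSC (10.6, 9.54 and 10.0 CPM). It rose by 0.52 ± 0.068 on the log2 scale (edgeR adjusted p = 5.16e-07), without overlap between groups. The 21 to 23 tested genes around each of these 3 had medians of 0.18 to 0.20. These sets largely coincide, and each includes the other caspases of the 3. Per kilobase, Casp1 was the highest of the role in CSC, at 12.3 ± 0.817 CPM against 4.6 ± 0.541 CPM in non-CSC. Casp4, at 10.0 ± 0.247 CPM in CSC, was the highest in non-CSC, at 7.01 ± 0.362 CPM, an order that turned round with the length of all exons. Casp16, which RefSeq lists as a pseudogene, had 10, 18 and 12 counts in CSC and 13, 16 and 18 in non-CSC. Casp14 had no count in any library.

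**Figure D3:**
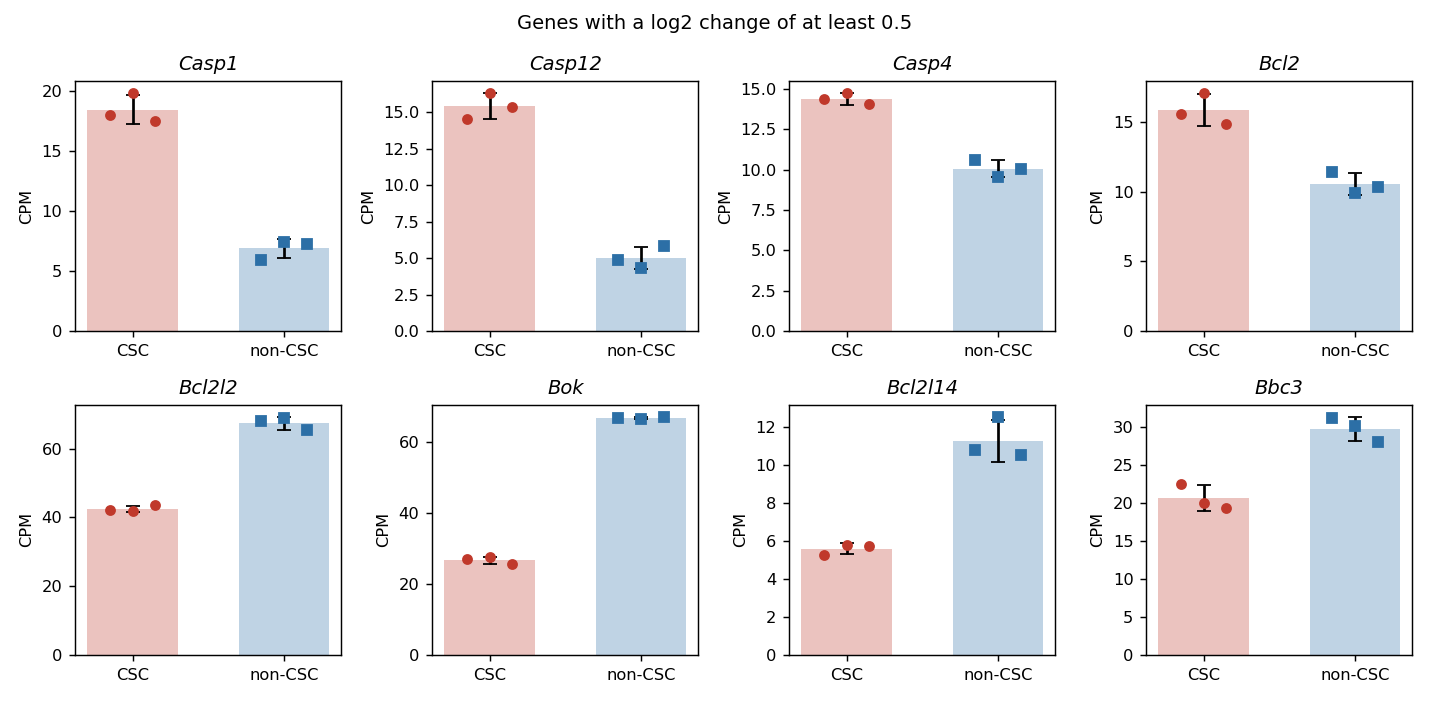
CPM of 8 genes with a log2 change of at least 0.5 that passed the test, in each library (points), with the group mean (bar) and SD (error bar), CSC left and non-CSC right. Casp1, Casp12, Casp4 and Bcl2 are higher in CSC, Bcl2l2, Bok, Bcl2l14 and Bbc3 lower, and in no panel do the groups overlap.

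Of the 5 genes grouped as caspase inhibitors 3 were higher in CSC, Cflar was lower and Birc2 did not pass. Over all genes tested, 33.4% were higher and 33.1% lower. Xiap, which encodes an IAP that binds caspases directly, had 96.0, 97.6 and 104 CPM in CSC against 68.7, 72.9 and 74.6 CPM in non-CSC. It rose by 0.46 ± 0.043 on the log2 scale (edgeR adjusted p = 1.87e-09), with all CSC libraries higher. Birc3, which encodes cIAP2, a ubiquitin ligase of the TNF receptor pathway, rose by 0.41 ± 0.063, with 35.5, 33.9 and 36.5 CPM in CSC against 26.99, 23.5 and 29 CPM in non-CSC (edgeR adjusted p = 7.49e-06). Its neighbour and paralog Birc2, which encodes cIAP1 and lies 10.3 kb away, did not pass, with 33.9 ± 1.72 CPM in CSC and 32.9 ± 0.768 CPM in non-CSC (SD, n = 3 each; edgeR adjusted p = 0.498). Birc6, a very large ubiquitin-conjugating IAP, had 402 ± 6 CPM in CSC and 353 ± 8.17 CPM in non-CSC and rose by 0.19 ± 0.035 (edgeR adjusted p = 5.55e-05).

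Cflar encodes cFLIP, a catalytically dead relative of caspase-8 that blocks it at death receptors. It had 4934, 5132 and 5370 counts in CSC (179, 181 and 185 CPM) against 6933, 7981 and 8060 in non-CSC (221, 230 and 228 CPM), and fell by 0.32 ± 0.035 on the log2 scale (edgeR adjusted p = 3.73e-08). All CSC libraries were lower, and the median of its 30 nearest tested genes was 0.19, in the other direction. With chromosome medians taken out, its log2 fold change was -0.51. Cflar and Casp8 lie close together on chromosome 1, whose tested genes had a median of 0.21. By level per length, Cflar took 30.6% to 30.8% of the inhibitors in CSC and 39.2% to 40.9% in non-CSC, and Xiap 15.9% to 16.5% in CSC and 11.7% to 12.4% in non-CSC.

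**Figure D4:**
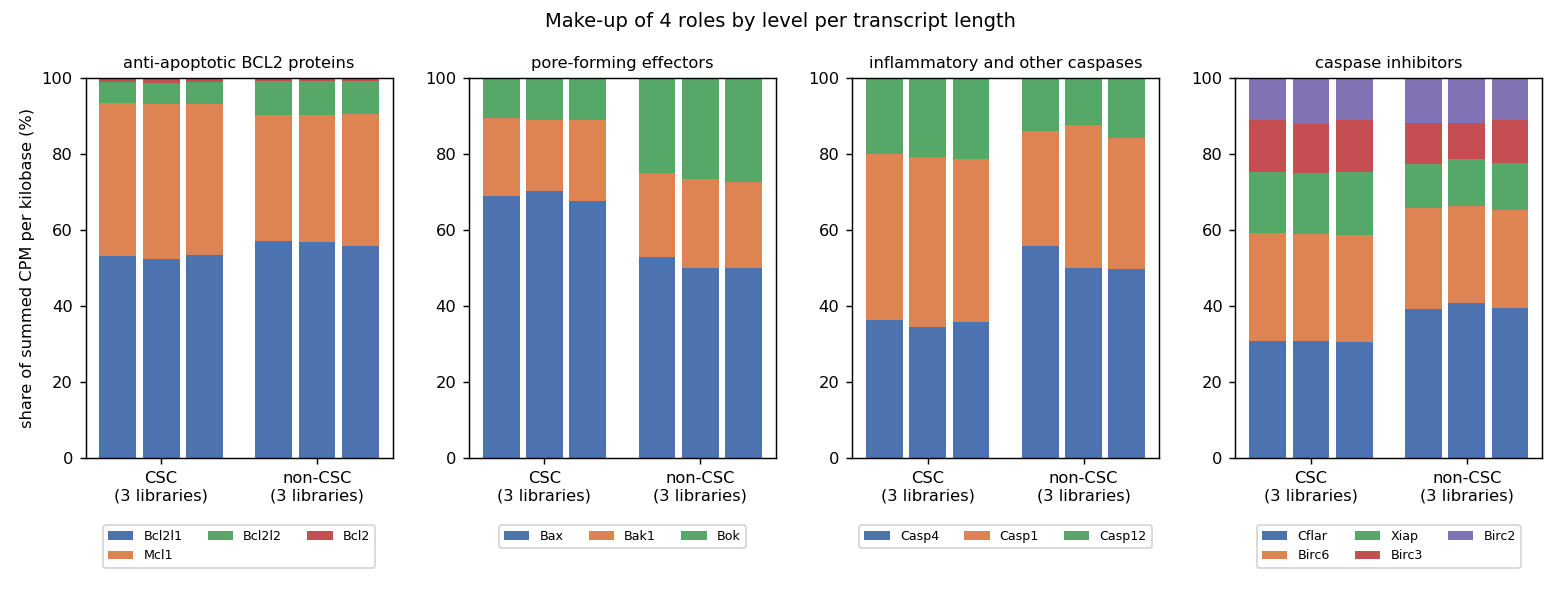
Share of each gene in its role's summed CPM per kilobase of transcript, for the 3 CSC libraries (left bars) and the 3 non-CSC libraries (right bars), in 4 roles. Bok, Casp4 and Cflar take smaller shares in CSC than in non-CSC, and Bax, Casp1 and Mcl1 larger ones.

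Other cell death genes were counted in 5 lists with 123 genes, of which 107 were tested. Over these lists 46 rose and 36 fell (median 0.07), beside 33.4% higher and 33.1% lower over all genes. Among necroptosis and pyroptosis genes 9 of 13 rose and 2 fell, their median being 0.39. At 2-fold were 5 rises and 1 fall, beside 8.01% of all genes higher and 4.09% lower. Gsdme, among these rises, had 59 counts over all libraries. Gsdmd, which encodes the pore-forming gasdermin D cut by caspase-1 and caspase-11, had 479, 499 and 478 counts in CSC and 202, 177 and 180 in non-CSC. Its level was 17.2 ± 0.611 CPM in CSC and 5.54 ± 0.774 CPM in non-CSC (SD, n = 3 each), a rise of 1.64 ± 0.083 on the log2 scale (edgeR adjusted p = 3.84e-14). Il18, the cytokine that caspase-1 matures, rose by 2.72 ± 0.111, with 304, 285 and 342 counts in CSC against 55, 63 and 50 in non-CSC (edgeR adjusted p = 7.07e-16). The inflammasome receptor genes Naip6 and Naip2 rose by 0.71 and 0.39. Chosen after its value was seen, Nlrc4, which works with NAIP proteins, had 4.16 ± 0.208 CPM in CSC and 0.913 ± 0.167 CPM in non-CSC (edgeR adjusted p = 7.73e-12).

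Other members of the list differed less or went the other way. Aim2, a cytosolic DNA sensor, rose by 0.33, with 66.1 CPM in CSC and 52.7 CPM in non-CSC, and was chosen after its value was seen. The adaptor gene Pycard and Il1b were chosen with their values known. Pycard had 1.02 CPM in CSC and 0.810 CPM in non-CSC (edgeR adjusted p = 0.303), and Il1b had 6 counts over all libraries. The necroptosis kinase gene Ripk3, also chosen after its value was seen, had 5, 3 and 2 counts in CSC against 106, 102 and 113 in non-CSC, a log2 fold change of -4.70 ± 0.254 (edgeR adjusted p = 1.23e-13). Mlkl, its substrate and the pore former of necroptosis, fell by 0.32, with 49.8 CPM in CSC and 62.0 CPM in non-CSC. Mlkl was likewise chosen with its value known.

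Among death receptors, ligands and adaptors 14 of 19 were higher and 2 lower, with a median of 0.28, beside 33.4% higher and 33.1% lower over all genes. Eda2r, a TNF receptor family member induced by p53, rose by 1.14 ± 0.067, Tnfrsf21, which encodes death receptor 6, by 1.08 ± 0.050, Pidd1, the scaffold that activates caspase-2, by 0.91 ± 0.066, and Casp8ap2 by 0.47 ± 0.048. Fas and Tnfsf10 were picked once their values were known. Fas had 176, 218 and 199 counts in CSC against 44, 62 and 81 in non-CSC, and Tnfsf10, which encodes the death ligand TRAIL, 184, 185 and 193 in CSC against 9, 5 and 7 in non-CSC. Their log2 fold changes were 1.92 ± 0.133 and 4.97 ± 0.180 (edgeR adjusted p = 2.22e-11 and 7.34e-17). The main mouse TRAIL receptor gene, Tnfrsf10b, also picked with its value known, had 86.3 CPM in CSC and 102 CPM in non-CSC.

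Of the 19 mitochondrial and nuclear death factors 8 rose and 6 fell, beside 33.4% and 33.1% of all genes, and the median was 0.08. None of them changed 2-fold, beside 12.1% of all genes. Dffa, the inhibitor and chaperone of the caspase-activated DNase, rose by 0.91, while the nuclease gene Endog fell by 0.62, the porin gene Vdac2, whose product binds BAK at mitochondria, by 0.51 and the protease gene Oma1 by 0.41 on the log2 scale. Of the partners and modifiers of BCL2 proteins and IAPs 6 of 29 rose and 12 fell, beside the same shares of all genes, and the median was -0.03. Bnip3, whose product binds BCL2 and serves in mitophagy, fell by 1.39, Xaf1, which antagonises XIAP, by 1.20 and the co-chaperone gene Bag5 by 1.09 on the log2 scale. Pim1, whose kinase phosphorylates BAD, rose by 0.95, with 105 ± 2.95 CPM in CSC and 54.4 ± 1.37 CPM in non-CSC (SD, n = 3 each).

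Of the transcription factors known to act on BCL2-family genes 9 of 27 rose and 14 fell, beside 33.4% and 33.1% of all genes. Their median was -0.11. Stat5a, which encodes a STAT factor, had 3837, 3991 and 3983 counts in CSC and 902, 886 and 935 in non-CSC, a rise of 2.37 ± 0.045 on the log2 scale (edgeR adjusted p = 4.78e-22). Ddit3, which encodes CHOP, fell by 2.56, Atf4 fell by 1.79 and Egr1 fell by 1.67. Trp53, chosen after its value was seen, had 189 CPM in CSC and 148 CPM in non-CSC (edgeR adjusted p = 7.01e-08). Whether any of these factors acted on the genes described was not tested.

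**Figure D5:**
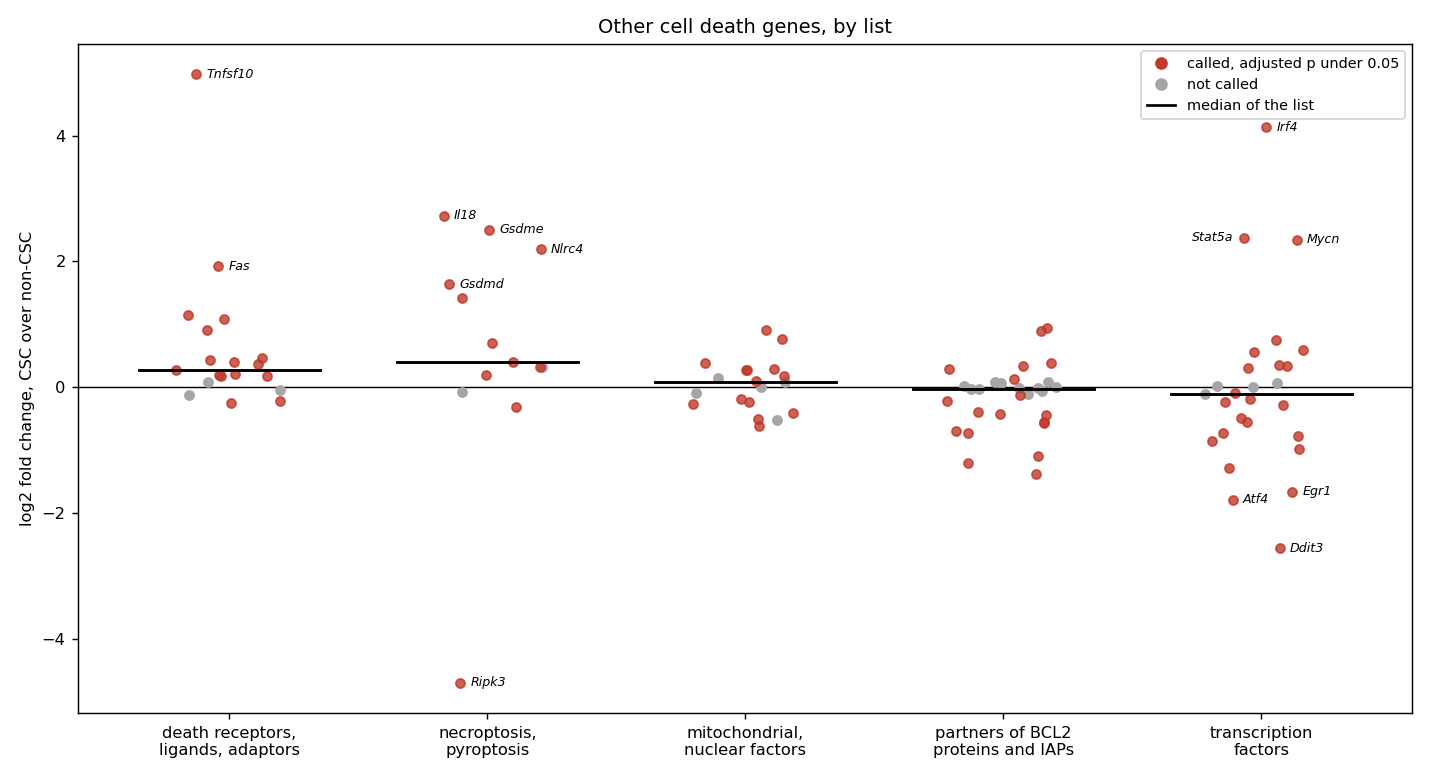
Log2 fold change of CSC over non-CSC for the tested genes of 5 cell death lists (points, grey where the adjusted p was 0.05 or more) with the median of each list (line), and names at 1.5 or more in either direction. The medians lie between -0.11 and 0.39, and single genes such as Tnfsf10, Il18 and Ripk3 lie far outside them.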

How the data were processed

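RNA was measured in 3 CSC and 3 non-CSC libraries made from 1.3 ug of total RNA, per the labels' protocols. The deposited values are raw counts in 1 table of gene symbols, and the submitters' processing notes name GRCm38. Not given in the sources used here are the aligner, the counter, its annotation and strand setting, and filters. Columns were matched to samples by group and replicate number.

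Counts were filtered with filterByExpr and tested with edgeR 4.0.16 (R 4.3.3; TMM, robust quasi-likelihood fit, no covariate). The standard error is the log2 fold change divided by the square root of F. Replicates of a group differed by more than sampling noise (chi-square per degree of freedom 3.21 to 7.30), so all 6 were kept. Precision is set by totals of 27099879 to 35971131 counts; a count of 0 allows up to 3 counts, at most 0.109 CPM per library, for counting error only. The members, roles and lists were chosen with earlier results of these data known. Members with an adjusted p under 0.05 and a log2 change of at least 0.5 are given with the counts of each library (some members are counted but not reported here), and up to 4 genes of each other list with the largest changes among those called with a mean of at least 5 CPM. Lengths, overlaps and shared 50-base words come from GENCODE M21, which held 34 of the 35 genes; levels per length use the longest coding transcript. Nearby genes are the 15 tested on each side by RefSeq position. Promoters are from RefSeq, GRCm38.p6. The test was tried on simulated counts. Alternatives were RLE, upper-quartile and library-size scaling, other filters, DESeq2 1.42.0, limma-voom (limma 3.58.1), the robust setting off, a replicate block, chromosome medians taken out and leaving out each library.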

Additional observations from a re-analysis of the deposited data

How the results depend on the processing

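All 9 genes with a log2 change of at least 0.5 in the main fit kept their direction and call in each of 16 alternatives. These were 144 values with a highest adjusted p of 6.48e-05 over edgeR, DESeq2 and limma-voom. The size of 0.5 was not kept in every alternative by Bcl2 (0.389 at the least), Casp4 (0.476), Bbc3 (-0.464) and Bcl2l2 (-0.479). The log2 fold change of Bcl2l14 ranged from -1.07 to -0.93 over the 16 alternatives, so its change did not reach 2-fold in all of them. Of the 27 called genes, 23 kept their call throughout, and Bmf, Bcl2l1, Bad and Casp6 did not. The counts of genes called, over all genes, over the members in each direction and at 2-fold, stayed within 1.5 times. The median over the 35 genes was 0.083 with upper-quartile and 0.090 with library-size scaling, which moved the median of all genes to 0.07 and 0.08. Signs turned with upper-quartile scaling for Bcl2l15 (0.031) and Cycs (0.006), and with library-size scaling for Bcl2l15 (0.038), Cycs (0.013) and Bcl2l12 (0.006). They turned without a low-count filter for Casp16 (-0.001) and Casp2 (-0.012), with a mean of 50 counts for Bcl2l15 (0.004), and with limma-voom for Casp16 (-0.002). With chromosome medians taken out they turned for Bad (0.10), Bcl2l15 (0.12), Birc2 (-0.001), Casp16 (-0.003), Casp2 (-0.018), Casp8 (-0.11) and the genes around Bcl2l2 (0.077). Of these, Bad was called lower in the main fit (-0.16, edgeR adjusted p = 0.00916). Casp8, not called in the main fit, passed as lower with chromosome medians taken out (edgeR adjusted p = 0.0261). The causes were not tested. Leaving out 1 library gave Birc2 -0.002 to 0.064, Casp16 -0.26 to 0.17, Casp2 -0.032 to 0.048, Bcl2l15 -0.173 to 0.081 and Cycs -0.14 to 0.00. Casp16 had too few counts for the filter at a mean of 50.

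Replicate numbers did not pair the samples: same-numbered libraries correlated at 0.009, -0.050 and -0.003 over 13482 genes. The replicate block gave 11680 called genes beside 11732, lost the call of Bmf (adjusted p = 0.0598) and added that of Casp8 (0.0413). With the length of all exons, chosen after seeing the data, 41 of 50 neighbouring pairs of levels per length within roles and groups kept their order. Low counts limit Bmf, Bcl2l15 and Casp16.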
